A study of Mus musculus with 2 samples.

Results

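The genes described are 9 of the 40017 gene symbols of the series, chosen by symbol as the lysozyme genes and the identity genes of the macrophage. They are Lyz2 and Lyz1 (lysozymes), Csf1r (the receptor for macrophage colony-stimulating factor, M-CSF), the lineage factor genes Spi1 and Cebpa, and Siglec1, Adgre1, Cd68 and Itgam, which encode surface and endosomal proteins used to recognise macrophages. The rule names symbols and sets no threshold on a value, but it was written with earlier results of these data known. Each of the 9 symbols had 1 row in the deposited table, and all 9 passed the filter of a mean of at least 1 FPKM (a unit that scales the fragments of a gene to its length and to the library's mapped total).

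The study measured RNA from mouse bone marrow-derived macrophages, cells grown from marrow with M-CSF, to ask how SPP1 (osteopontin, a secreted protein) acts on the macrophage. The KO library came from SPP1fl/fl-Lyz2-icre mice, in which iCre, a form of Cre recombinase, is driven by Lyz2. The WT library came from SPP1fl/fl mice without that driver, so both groups carry the floxed Spp1 alleles and only the KO group carries the iCre allele. Both cultures were kept for 5 days with M-CSF at 20 ng/ml. The number of mice behind each library, their sex and age, the number of driver alleles and the way in which iCre was placed at Lyz2 are not stated in the labels. In a widely used strain of this kind, Cre is knocked into the start of the Lyz2 coding sequence and that allele no longer makes lysozyme; whether this is true of the mice used here is not given. There was 1 library per genotype, so no difference below has a replicate check, a standard error or a p-value, and a gene's lower value cannot be told apart from fewer cells that express it.

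As background, a macrophage is set up by PU.1 (the product of Spi1) acting with the C/EBP factors, which open and activate the genes of the myeloid line, Csf1r among them. M-CSF binding to the CSF1R tyrosine kinase then keeps the cells alive and growing, and cells of this kind come to display EMR1 (Adgre1) and CD11b (Itgam) and fill with CD68-bearing endosomes. Lysozyme, which cuts the peptidoglycan of bacterial walls, is among their most abundant secreted products. In mice the macrophage and neutrophil enzyme is made from Lyz2, and Lyz1 next to it is best known from the Paneth cells of the gut, which is why Lyz2 is used to drive Cre in the myeloid line.

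Lyz2 and Lyz1 lie side by side on the minus strand of chromosome 10 in GRCm38, the assembly also called mm10. Lyz2 (ENSMUSG00000069516.8) spans 117277331 to 117282321 and Lyz1 (ENSMUSG00000069515.6) spans 117287797 to 117292868, each with 4 exons in the GENCODE M21 transcript. The first 300 bases of their coding sequences are shown because the 2 genes can compete for the same reads. The coding bases lie within 117278121 to 117282242 for Lyz2 and within 117288583 to 117292838 for Lyz1, and capitals mark the bases that differ between them.
Lyz2: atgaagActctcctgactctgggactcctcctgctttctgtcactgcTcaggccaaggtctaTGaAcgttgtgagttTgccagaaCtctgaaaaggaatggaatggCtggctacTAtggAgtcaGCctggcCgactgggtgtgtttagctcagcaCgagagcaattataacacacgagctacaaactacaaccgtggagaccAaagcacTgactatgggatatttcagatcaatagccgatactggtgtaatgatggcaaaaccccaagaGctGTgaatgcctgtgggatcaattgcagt
Lyz1: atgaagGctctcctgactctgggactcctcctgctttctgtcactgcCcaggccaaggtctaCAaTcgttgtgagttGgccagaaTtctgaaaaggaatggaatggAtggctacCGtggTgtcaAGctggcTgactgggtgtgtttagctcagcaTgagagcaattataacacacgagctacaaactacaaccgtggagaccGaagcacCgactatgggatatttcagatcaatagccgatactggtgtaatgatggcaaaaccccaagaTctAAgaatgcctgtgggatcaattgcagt
Of the 22 positions at which the 447 coding bases of the pair differ (an identity of 95.1%), 20 lie in the part shown, and the longest stretch without a difference is 118 bases. Over the whole transcripts, 1263 bases for Lyz1 and 1316 for Lyz2, 16.1% of the windows of 50 bases in Lyz1 occur letter for letter in Lyz2. The share was 2.06% for windows of 100 bases, and 0 of the 1114 Lyz1 windows of 150 bases occur in Lyz2. The labels do not state the read length.

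The Cre driver gene had the lowest difference of the 9 members. Lyz2 stood at 13539 FPKM in the KO library, against 29499 FPKM in the WT library, and was the most abundant symbol of both. The KO level was 45.9% of the WT level, a difference of -1.12 in log2(FPKM + 1), KO minus WT, the scale of every difference below. Lyz2 was past the rule of size used throughout, a difference of at least 1 (2-fold) in either direction. It was 1 of 9 members lower by this rule, beside a share of 0.475% of the 10536 symbols past the filter. Ordered from the lowest difference, it was number 43 of these symbols. Symbols ahead of it include some with several rows in the table, such as Atp6v1c1 (2 rows, -4.17) and Brd2 (4 rows, -2.93). The value of a symbol with several rows is uncertain, so the rank and the share of 0.475% are uncertain too.

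Among abundant symbols, values lower by the 2-fold rule were rare. Among the 599 symbols with a mean of at least 100 FPKM, 0.334% were lower by the 2-fold rule: Spp1 and Lyz2, and no other. Spp1, the targeted gene, stood at 11.3 FPKM in KO cells and 4006 FPKM in WT cells, a KO level at 0.283% of WT, which checks the labels. The 4 other symbols with 1 row and at least 100 FPKM whose differences lay nearest to that of Lyz2 were Rpl17-ps10 (-0.62), TrnP (-0.60), Ppia (-0.49) and TrnL1 (-0.46), compared over the 2 libraries and 592 symbols. The nearest of them lay 0.50 away from Lyz2 on the log2 scale, and none is a macrophage marker by the lists used here.

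Lyz1 was lower as well, but its level is a small fraction of that of Lyz2. It stood at 13.6 FPKM in the KO library and 25.1 FPKM in the WT library, a difference of -0.84, short of the 2-fold rule and past a 1.5-fold one. Relative to Lyz2, Lyz1 was at 0.101% in KO and 0.0851% in WT. By the estimate of depth described with the processing, the Lyz1 values rest on about 299 read steps in KO and 721 in WT. Whether any of them come from the far more abundant Lyz2 transcript, through the identical stretches shown above, was not tested.

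The remaining lysozyme-like genes gave little or no signal. Of the 10 genes of the lysozyme family list, 3 passed the filter and 7 are listed at 0 in both libraries. The lysozyme-like gene Lyzl4 stood at 1.81 FPKM in KO cells and 1.10 FPKM in WT cells (0.42), opposite in direction to Lyz2 and Lyz1. Genes around the lysozyme pair stayed close to level: the 8 protein-coding genes past the filter within 500 kb had a median difference of 0.01, from -0.19 to 0.14, and none passed the 2-fold rule.

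The regions upstream of both lysozyme genes are also alike, and are shown because both genes had lower values in KO. The sequences are the 250 bases before the RefSeq start sites (GRCm38.p6), at chr10:117282273-117282522 for Lyz2 and chr10:117292869-117293118 for Lyz1, both on the minus strand. Capitals mark the bases that differ in a global alignment of the pair.
Lyz2: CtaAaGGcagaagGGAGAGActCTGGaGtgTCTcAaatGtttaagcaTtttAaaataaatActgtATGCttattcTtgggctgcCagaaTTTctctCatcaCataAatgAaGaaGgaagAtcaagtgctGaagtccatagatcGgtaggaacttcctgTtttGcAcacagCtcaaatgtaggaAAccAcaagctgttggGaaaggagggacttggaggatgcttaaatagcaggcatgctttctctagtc
Lyz1: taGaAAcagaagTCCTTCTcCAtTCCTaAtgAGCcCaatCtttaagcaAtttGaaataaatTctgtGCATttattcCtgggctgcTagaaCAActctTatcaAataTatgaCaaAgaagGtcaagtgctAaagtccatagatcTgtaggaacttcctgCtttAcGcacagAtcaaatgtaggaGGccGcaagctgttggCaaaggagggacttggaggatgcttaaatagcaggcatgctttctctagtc
The windows were identical at 200 of 252 aligned columns (79.4%), and the last 50 bases before the RefSeq start site were the same in both. The 2 annotations place the Lyz2 start differently: its GENCODE M21 span reaches 117282321, so the last bases of the Lyz2 window lie inside that span. The Lyz1 window lies outside its GENCODE M21 span, which ends at 117292868. The core letters of the ETS family, to which PU.1 belongs, GGAA on either strand, occurred 5 times in the Lyz2 window and 4 times in that of Lyz1. These letters were present, in any number, in 93.4% of all 32851 windows of this length. The longer PU.1-type letters GAGGAAG, which contain GGAA, occurred in neither and in 10.6% of all windows. Windows were read for 5 of the 9 members (Lyz2, Lyz1, Cebpa, Cd68 and Itgam), and Csf1r was not among them. Of these 5, Itgam alone held GAGGAAG, with its first letter at position -84 from the start site. The C/EBP-type letters TTGCNNAA, on either strand, were found once each in the windows of Lyz1 and Cd68 and in 9.56% of all windows. These matches describe letters and not bound sites.

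**Figure D1:**
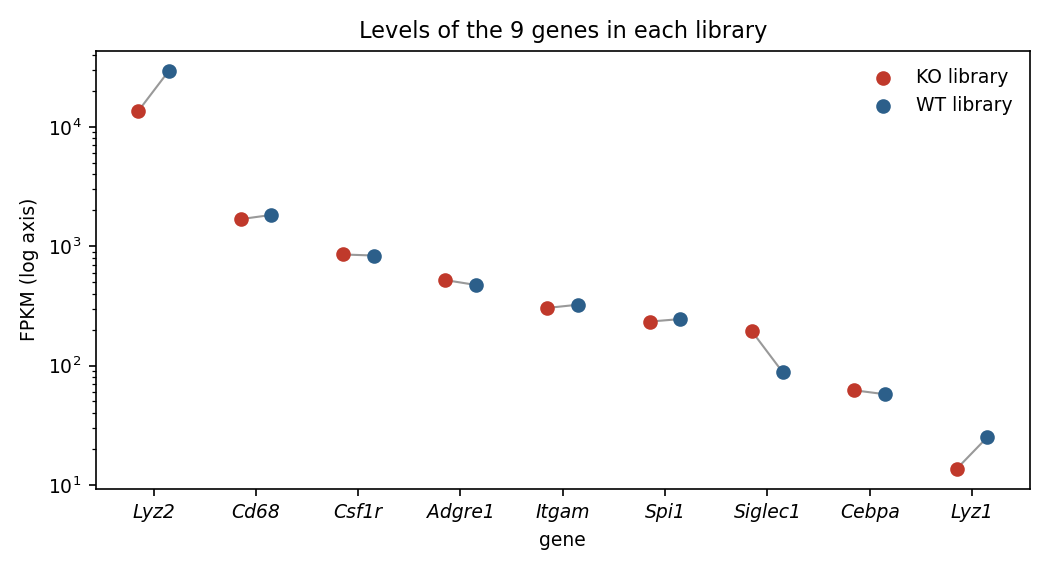
FPKM on a log axis for the 9 genes, with KO to the left of WT and a line joining the 2 libraries of each gene. Lyz2 stands at 13539 in KO and 29499 in WT and Siglec1 at 192.9 in KO and 87.9 in WT, while the 6 members other than these 2 and Lyz1 are near level.

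The order of the 9 genes by level was the same in both libraries: Lyz2, Cd68, Csf1r, Adgre1, Itgam, Spi1, Siglec1, Cebpa and Lyz1, as the plot of levels shows. FPKM is scaled to gene length, so levels of different genes can be set side by side. Without replicates, no spread is known with which to tell neighbours in this order apart.

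The receptor that reads the M-CSF of the culture was at nearly the same level in both libraries. Csf1r (chromosome 18, ENSMUSG00000024621.16) stood at 851.8 FPKM in the KO library and 834.7 FPKM in the WT library, a difference of 0.03, and was number 43 of all symbols in KO and number 42 in WT. Its sign depends on the scaling: with Lyz2 left out of the summed FPKM by which each library is divided, the difference was -0.01. Of the summed FPKM, Lyz2 alone made up 3.21% in KO cells and 6.93% in WT cells, and dividing each library by its total without Lyz2 shifts every gene by -0.04 (log2) against the deposited FPKM.

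Among the 27 genes of the CSF1R signalling list, 25 passed the filter, and 0 were higher and 0 lower by the 2-fold rule, close to the 1.23% higher and 0.475% lower among all symbols. Their median difference was -0.01, beside -0.01 over all 10536 symbols. The gene of the ligand, Csf1 (M-CSF itself), stood at 17.7 FPKM in KO cells and 11.9 FPKM in WT cells (0.53), which was 2.07% of the Csf1r level in KO and 1.43% in WT. The other ligand gene, Il34, is listed at 0 in both libraries. Tyrobp, the adaptor DAP12 that works beside CSF1R, stood at 1083 FPKM in KO cells and 940.8 FPKM in WT cells (0.20), and the kinase gene Mapk3 at 135.1 FPKM in KO cells and 157.6 FPKM in WT cells (-0.22). The PI3-kinase subunit gene Pik3cd had the largest difference of the list that passed the filter, 13.9 FPKM in KO cells and 7.42 FPKM in WT cells (0.82), but it has 3 rows in the table and its value is uncertain.

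The lineage factor genes among the members were nearly level. Spi1 (ENSMUSG00000002111.8, chromosome 2, 91082390 to 91115756), which encodes PU.1, stood at 233.5 FPKM in the KO library and 245.1 FPKM in the WT library, a difference of -0.07. Cebpa (ENSMUSG00000034957.10, chromosome 7, 35119293 to 35121928), which encodes C/EBP-alpha, stood at 62.1 FPKM in KO cells and 57.5 FPKM in WT cells, a difference of 0.11. Spi1 was thus 3.76 times Cebpa in KO and 4.26 times in WT.

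The other lineage factors were read in the same way. Of the 27 factors listed, Spi1 and Cebpa included, 21 passed the filter, with 14 lower and 7 higher in direction and 0 past the 2-fold rule either way, again close to the shares of 1.23% and 0.475% over all symbols. The median difference was -0.08, and it stayed between -0.13 and -0.07 under the 6 scalings. The largest differences belonged to Batf3, a dendritic cell factor at 2.55 FPKM in KO cells and 1.64 FPKM in WT cells (0.43), Cebpd, at 8.61 FPKM in KO cells and 11.4 FPKM in WT cells (-0.36), and the inhibitor of differentiation gene Id2, at 61.8 FPKM in KO cells and 75.7 FPKM in WT cells (-0.29). Irf8, a partner of PU.1 in the monocyte line, stood at 108.6 FPKM in KO cells and 89.1 FPKM in WT cells (0.28), and was named after its values were seen. The progenitor and granulocyte factors Myb, Gfi1 and Cebpe, also named after their values were seen, were below 1 FPKM in both libraries.

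Siglec1 was the member higher in KO by the 2-fold rule. Siglec1 (ENSMUSG00000027322.11, chromosome 2, 131069220 to 131086765, minus strand) encodes CD169, a lectin that binds sialic acid on other cells and on virus particles, and is known as an interferon-induced gene of macrophages. It stood at 192.9 FPKM in the KO library and 87.9 FPKM in the WT library, 2.20-fold higher, a difference of 1.13. It was number 287 of all symbols in KO and number 681 in WT. It was 1 of 9 members, beside 1.23% of the 10536 symbols past the filter, and number 103 of these symbols from the highest difference.

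The interferon-induced genes were higher in the same library as Siglec1. In a short interferon list, all 12 genes had higher values in KO. Of these, 11 passed the 2-fold rule, beside 1.23% of all 10536 symbols. Their median difference was 1.48, against -0.07 for the 9 members and -0.01 over all symbols. The list was written with earlier results of these data known. Isg15, a ubiquitin-like protein, stood at 182.8 FPKM in KO cells and 50.9 FPKM in WT cells (1.82), and Ifit2, which binds viral RNA, at 160.5 FPKM in KO cells and 42.6 FPKM in WT cells (1.89). The part of interferon signalling in the Siglec1 value was not tested. Among the 599 symbols of at least 100 FPKM, 1.84% were higher by the 2-fold rule, 11 symbols of which Siglec1 is 1. The other 10 were Oas1a, Rtp4, Oasl2, Ly6e, Bst2, Ifit3, Irf7, Isg15, Ifit2 and Ifi27l2a, all known as interferon-induced.

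Genes with 1 row and a mean of at least 10 FPKM whose differences lay nearest to that of Siglec1 were Fgl2 (1.14), Phf11b (1.15), Ddx60 (1.15) and Ube2l6 (1.16), out of 5440 compared over the 2 libraries. Fgl2, a fibrinogen-like protein, stood at 23.4 FPKM in KO cells and 10.1 FPKM in WT cells. Ube2l6, the conjugating enzyme for ISG15, stood at 101.6 FPKM in KO cells and 45.0 FPKM in WT cells. In these 5440 symbols, 43 were higher in KO by the 2-fold rule, so likeness to Siglec1 in 2 libraries is shared by many genes. The 17 protein-coding genes past the filter within 500 kb of Siglec1 had a median difference of -0.02 and a range from -0.37 to 0.27.

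**Figure D2:**
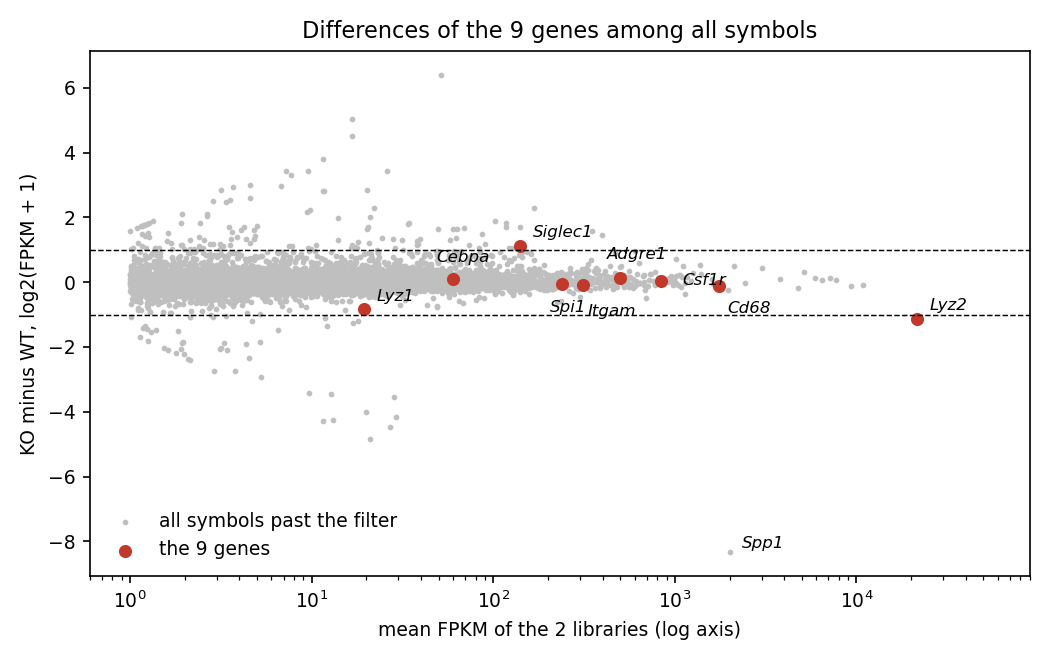
Difference KO minus WT in log2(FPKM + 1) against the mean FPKM of the 2 libraries (log axis), for the 10536 symbols past the filter (grey) and the 9 genes (red). Dashed lines mark the 2-fold rule, which Siglec1 passes upward (1.13) and Lyz2 downward (-1.12), with Spp1 at -8.34.

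The other surface and endosomal identity genes differed little. Adgre1, which encodes EMR1, the classic macrophage antigen among the adhesion G protein-coupled receptors (ENSMUSG00000004730.15, chromosome 17, 57358691 to 57483527), stood at 520.1 FPKM in the KO library and 473.2 FPKM in the WT library, a difference of 0.14. Cd68 (ENSMUSG00000018774.13, chromosome 11, 69664213 to 69666153), an endosomal membrane glycoprotein, stood at 1684 FPKM in KO cells and 1825 FPKM in WT cells (-0.12) and was number 15 of all symbols in both. Itgam (ENSMUSG00000030786.18, chromosome 7, 128062640 to 128118491), the alpha chain of the Mac-1 integrin, stood at 303.9 FPKM in KO cells and 323.4 FPKM in WT cells (-0.09).

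Csf1r, Adgre1, Spi1, Cebpa, Cd68 and Itgam thus spanned differences from -0.12 to 0.14. For comparison, 58.0% of all 10536 symbols had a difference smaller in size than the largest of these 6, that of Adgre1. Under the 6 scalings the signs of Adgre1 and Cebpa stayed positive and those of Spi1, Itgam and Cd68 negative, and Csf1r was the member whose sign turned.

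**Figure D3:**
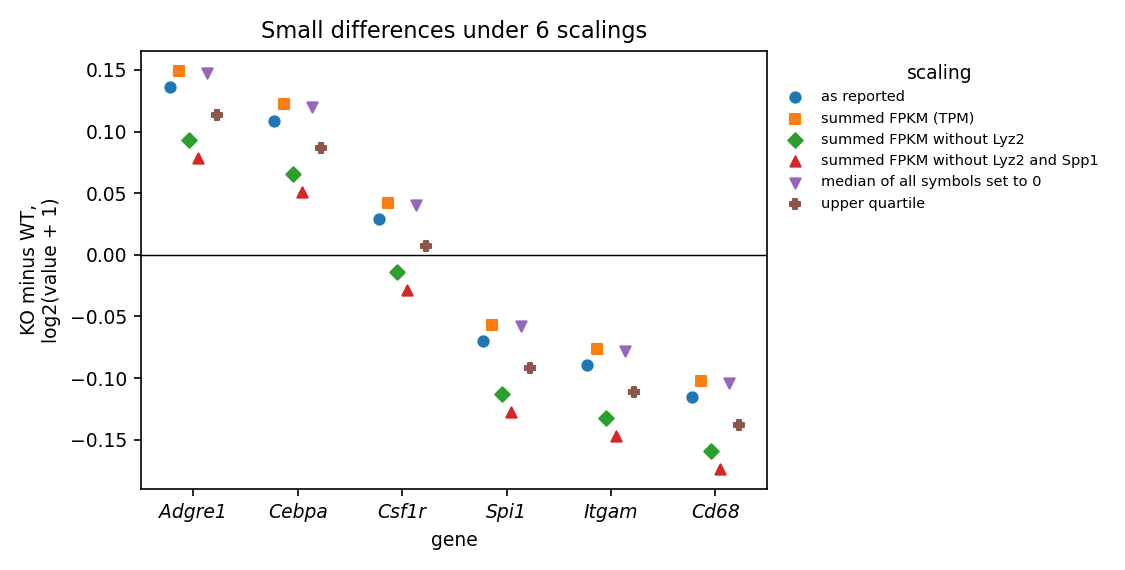
Difference KO minus WT in log2(value + 1) for the 6 members with the smallest differences, each under 6 scalings of the libraries. Leaving Lyz2 out of the total moves all 6 downward together and takes Csf1r to -0.01.

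Relatives and partners of these surface genes gave a similar picture. Of the 21 listed, 4 of them members, 18 passed the filter, and the member Siglec1 was the 1 gene past the 2-fold rule. Over all symbols the shares were 1.23% higher and 0.475% lower. The median difference was 0.02 with 11 higher and 7 lower in direction, but it was -0.02 with 7 higher and 11 lower when Lyz2 was left out of the total. Itgb2, the beta chain that pairs with Itgam, stood at 483.3 FPKM in KO cells and 476.1 FPKM in WT cells (0.02), so the level of Itgam was 62.9% of that of Itgb2 in KO and 67.9% in WT. Cd33, another sialic acid-binding lectin, went the opposite way to Siglec1 with 16.3 FPKM in KO cells and 20.7 FPKM in WT cells (-0.33). The integrin alpha chain gene Itgad stood at 0.886 FPKM in KO cells and 1.49 FPKM in WT cells (-0.40). Lamp1, a lysosomal glycoprotein of the same family as CD68, stood at 1238 FPKM in KO cells and 1202 FPKM in WT cells (0.04).

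In a wider list of core macrophage genes, 0 passed the 2-fold rule, which is close to the shares over all symbols (1.23% higher and 0.475% lower). Of its 29 genes, none of them a member, 27 passed the filter, with 18 higher and 9 lower in direction and a median difference of 0.09; with Lyz2 and Spp1 left out of the total, 14 were higher and 13 lower. The median ranged from 0.03 to 0.10 under the 6 scalings. Fcgr1, the high-affinity IgG receptor and also interferon-induced, came nearest to the rule with 190.2 FPKM in KO cells and 99.2 FPKM in WT cells (0.93). Arsg, an arylsulfatase of the lysosome, stood at 1.63 FPKM in KO cells and 2.54 FPKM in WT cells (-0.43), and the fractalkine receptor gene Cx3cr1 at 38.2 FPKM in KO cells and 29.4 FPKM in WT cells (0.37).

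**Figure D4:**
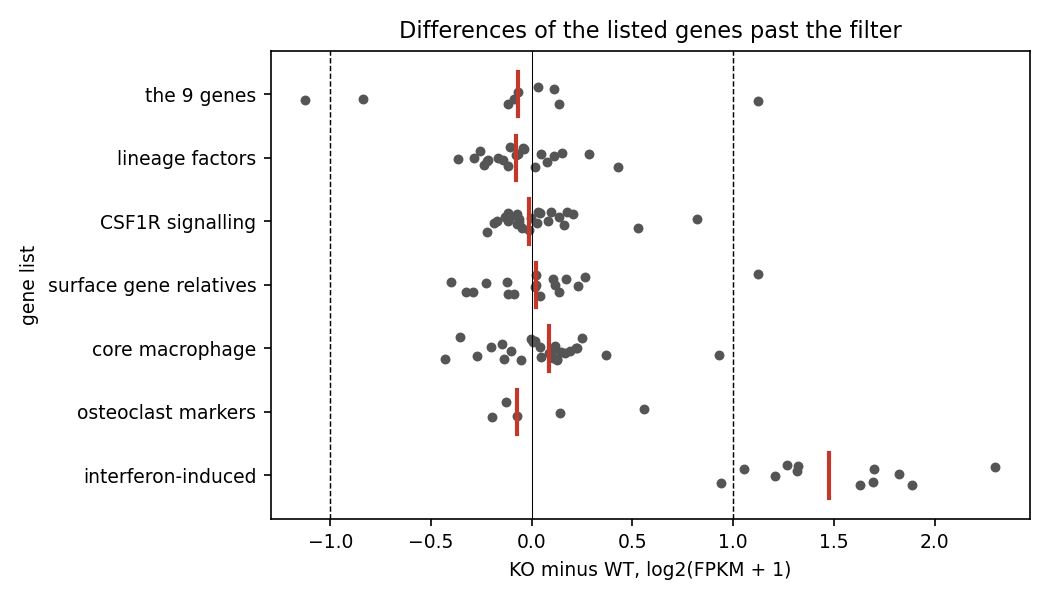
Difference KO minus WT in log2(FPKM + 1) for each gene past the filter (points) in 7 lists, with the median of each list as a red bar and the 2-fold rule as dashed lines. The lineage, CSF1R, surface and core macrophage lists centre between -0.08 and 0.09, and the interferon-induced genes lie at 0.94 to 2.30.

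Both libraries carried the macrophage markers at high level, as labelled, and little of most other cell types. Of 14 neutrophil markers, the other main cell type in which Lyz2 is active, 12 were below 1 FPKM in both libraries and the granule genes Elane and Camp and the surface antigen gene Ly6g are listed at 0 in both. The list summed to 8.47 FPKM in KO cells and 8.95 FPKM in WT cells. The part of neutrophils in the Lyz2 values was not tested. The largest values of the list were Mmp8, at 4.67 FPKM in KO cells and 6.13 FPKM in WT cells, and S100a8, at 2.86 FPKM in KO cells and 1.52 FPKM in WT cells.

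Stromal markers had low sums in both libraries, and the KO sum was the lower. Of 9 genes, 2 passed the filter, and the list summed to 4.41 FPKM in KO cells and 10.1 FPKM in WT cells, led by the matrix proteoglycan genes Dcn (1.46 FPKM in KO cells and 4.23 FPKM in WT cells) and Bgn (1.84 FPKM in KO cells and 3.18 FPKM in WT cells). Each of the 9 genes had the lower value in KO, 7 of them below 1 FPKM in both libraries. Dcn was lower by the 2-fold rule (-1.09), 1 of the 2 past the filter, beside 0.475% of all symbols. None of the 9 is at 0 in both libraries, and the part of these genes in the Lyz2 difference was not tested. Lymphocyte markers summed to 10.7 FPKM in KO cells and 12.2 FPKM in WT cells, most of it Cd4 (8.65 FPKM in KO cells and 10.8 FPKM in WT cells), with Cd3e and Cd8a at 0 in both. Erythroid markers summed to 1.07 FPKM in KO cells and 1.09 FPKM in WT cells. Mast cell and basophil markers summed to 4.25 FPKM in KO cells and 5.65 FPKM in WT cells, most of it Kit (3.999 FPKM in KO cells and 5.23 FPKM in WT cells).

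The last 3 lists, of dendritic cells, osteoclasts and endothelium, had some members at higher levels. Of 9 dendritic cell markers, 8 were below 1 FPKM in both libraries. The exception, Bst2 (526.6 FPKM in KO cells and 177.2 FPKM in WT cells), is interferon-induced as well. Osteoclast genes, which M-CSF-grown precursors share in part, had 5 of 7 past the filter, 2 higher and 3 lower in direction, with a median difference of -0.08. The most abundant was Atp6v0d2, at 163.3 FPKM in KO cells and 178.7 FPKM in WT cells (-0.13). The largest difference was that of Dcstamp, a fusion protein gene, at 3.999 FPKM in KO cells and 2.40 FPKM in WT cells (0.56). Endothelial markers had 2 of 5 past the filter, Kdr at 19.3 FPKM in KO cells and 12.7 FPKM in WT cells (0.57) and Vwf at 12.9 FPKM in KO cells and 13.9 FPKM in WT cells (-0.10).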

How the data were processed

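The values are FPKM that the authors deposited in 1 table of gene symbols, with 1 library per genotype; RSEM, DESeq2 and mm10 appear in the submitters' processing notes without role or version, and the aligner, annotation and filters were not stated in the labels. The table also holds 2 columns of values that match no sample, and they were not used. Of its 42396 rows, the row with the highest mean was kept for each of the 1766 symbols with several rows, which left 40017 symbols. FPKM is relative within a library, so a change of a very abundant gene moves all others. Differences were computed in pandas 2.3.3 as KO minus WT on the log2(FPKM + 1) scale, which makes changes of low genes look smaller. Symbols with a mean of at least 1 FPKM were read against a 2-fold rule. No statistical test was made, since there are no replicates.

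Depth was read from the lowest values. A WT to KO ratio of 1.308 turned 78.8% of 2833 low value pairs into ratios of whole numbers (tolerance 0.001, relative), and 10.1% did so with the ratio set 5% off. With exon lengths of genes with 1 transcript in GENCODE M21, the most common step gave about 17.4 M (mega) steps in KO and 22.7 M in WT, and a smaller, less common step gave 34.8 M in KO and 45.5 M in WT. Whether these are fragments and reads is not given, so no counting interval is printed.

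Named genes are the 9 members, Spp1, up to 3 genes of each list with the largest differences past the filter, and the 4 symbols most like Lyz2 and Siglec1; other genes were named after their values were seen. The members and lists were chosen with earlier results of these data known. Alternatives were other pseudocounts, scalings, filters and thresholds, and summed rows. The values of some single genes of the lists are not reported.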

Additional observations from a re-analysis of the deposited data

How the results depend on the processing

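Across the 10 alternatives run for single genes (pseudocounts, scalings, summed rows and thresholds, not filters) the Lyz2 difference ran from -1.18 to -1.11, that of Siglec1 from 1.07 to 1.14 and that of Lyz1 from -0.89 to -0.69. No called difference turned its sign. Csf1r was at -0.014 with the summed FPKM without Lyz2 and at -0.029 without Lyz2 and Spp1, by the construction of those scalings. Under a 3-fold rule Lyz2 (-1.12) and Siglec1 (1.13) no longer passed, leaving 0 members higher and 0 lower. Under a 1.5-fold rule Lyz1 (-0.84) passed too, giving 2 members lower. Counts over all symbols, 130 higher and 50 lower, moved with the rule: 341 and 121 at 1.5-fold, 57 and 31 at 3-fold, 58 and 18 with a pseudocount of 5 FPKM, 79 lower with 0.1 FPKM, 82 lower with no filter, 64 and 18 at a mean of at least 5 FPKM, and 11 and 2 at 100 FPKM. The other 135 of 155 recomputed values kept their side of the rule, or for counts stayed within 1.5 times. No paired analysis was possible because each genotype has 1 library. The spread between cultures is unknown, which limits every value here.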

Other observations

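A standard macrophage marker gene, Aif1 (the IBA1 protein of microglia and macrophages), was nearly absent from the table. Its 4 rows summed to 0.723 FPKM in KO cells and 0.402 FPKM in WT cells, beside 1653 FPKM in KO cells and 1535 FPKM in WT cells for Mpeg1, another macrophage gene. As for Pik3cd, the value of a symbol with several rows is uncertain, so the low Aif1 values are not read as absence from the cells. Another gene of the core macrophage list with several rows is Laptm5 (2 rows, summing to 25.02 FPKM in KO cells and 23.1 FPKM in WT cells). Ets2, a factor downstream of CSF1R with 2 rows, stood at 0.0809 FPKM in KO cells and 1.86 FPKM in WT cells. It did not pass the filter, and its value is uncertain as well. All 9 members have 1 row.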
